A study of Mus musculus with 10 samples.

Results

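The subunits of the mitochondrial respiratory chain and of the ATP synthase were compared between C2C12 cells transfected with a miR-27a-3p mimic and C2C12 cells transfected with a scrambled sequence. The 49 genes were taken from a list of subunits by the gene name that the array's files give. They comprised 19 subunits of complex I, 6 of complex III, 8 of complex IV, 15 of complex V and the electron carrier cytochrome c, out of 13188 genes and transcripts with a probe kept for analysis. Each gene was represented by 1 probe, the one with the highest mean signal, and all 49 chosen probes were well above background in all 10 files. C2C12 is an established mouse myoblast line that can fuse into myotubes. Both groups were C2C12 myoblasts in growth medium with serum, and both had received 150 nM of synthetic RNA with the same lipid reagent 72 h before collection. The mimic is a synthetic duplex RNA from which cells load the mature microRNA, and per the series' design text about 60% of the cells took up the RNA, so each sample also held cells without it. No untransfected cells were analysed here.

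The labels list 6 mimic and 4 scramble samples as independent transfections, but the 10 files came from 5 array positions on 1 slide, each scanned 2 times. Non-uniform spots were shared by the 2 scans of a position (24 to 81 spots) and hardly by any other pair of files (0 or 1). The 2 files were therefore averaged and counted as 1 replicate, giving 3 mimic arrays (mimic replicates 1 and 4, 2 and 5, 3 and 6) and 2 scramble arrays (scramble replicates 1 and 3, 2 and 4). Every p-value rests on the variation among just 5 arrays, some of which may be technical, and this small number limits the precision. Levels are log2 processed signal minus the 75th percentile of the file, and differences are mimic minus scramble on that scale with limma's moderated standard error (SE). The level of one probe cannot be set against the level of another. At most 35.3% of the 59305 non-control spots of a file were well above background, and none was saturated.

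The respiratory chain sits in the inner mitochondrial membrane. Complex I takes electrons from NADH and complex II from succinate, complex III passes them from ubiquinol to cytochrome c, and complex IV hands them to oxygen. Complexes I, III and IV pump protons, and complex V, the ATP synthase, lets protons flow back through its membrane ring and turns that flow into ATP. Most subunits are encoded in the nucleus and a small core is encoded by mitochondrial DNA. Skeletal muscle depends on this system, and differentiating myoblasts are known to build up mitochondria. NRF1, GABP and the oestrogen-related receptors, with the coactivator PGC-1alpha, are the textbook transcriptional regulators of the nuclear subunits.

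The mature microRNA that the mimic supplies is shown with that of its close relative miR-27b-3p, with the seed (bases 2 to 8) in capitals. Sequences are those of RefSeq on GRCm38.p6, where the mature miR-27a-3p lies at chr8:84208727-84208747 on the plus strand and miR-27b-3p at chr13:63300760-63300780 on the plus strand. Both are 21 bases long, differ at 1 base outside the seed and share the seed.
mmu-miR-27a-3p: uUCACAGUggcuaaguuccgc
mmu-miR-27b-3p: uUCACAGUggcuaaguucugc

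RefSeq promoter sequences (GRCm38.p6) were matched for 39 of the 49 members, and the 250 bases before the start were searched on both strands. The core letters of the NRF1 motif, GCATGCGC, was found in 5 of the 39 (12.8%) and in 2.56% of the 27025 genes with a promoter sequence. The 5 were Ndufa8, Cycs, Atp5g2, Atp5k and Atp5l. The GABP/Ets letters CCGGAAG were found in 6 of the 39 (15.4%) and in 7.83% of all genes, namely in Ndufs3, Cox6b1, Atp5e, Atp5h, Atp5j and Atp5l. The letters searched for the oestrogen-related receptors, TCAAGGTCA, were in 1 of the 39 (Atp5g3, 2.56%) and in 0.422% of all genes. CAGCTG, the E-box that myogenic factors bind, was in 4 of the 39 (10.3%), against 14.7% of all genes. None of these motifs contains another, and a match is a match of letters only. The 250 bases are shown for Cycs, the classical NRF1 example, for Atp5l, the only member among the 39 with both the NRF1 and the GABP letters, and for Atp5d, the member with the largest difference below (1 of its 2 RefSeq starts). Matches of the NRF1, GABP and oestrogen-related receptor letters on either strand are in capitals, and each sequence runs towards the start on the gene's strand.
Cycs, chr6:50566570-50566819, minus strand: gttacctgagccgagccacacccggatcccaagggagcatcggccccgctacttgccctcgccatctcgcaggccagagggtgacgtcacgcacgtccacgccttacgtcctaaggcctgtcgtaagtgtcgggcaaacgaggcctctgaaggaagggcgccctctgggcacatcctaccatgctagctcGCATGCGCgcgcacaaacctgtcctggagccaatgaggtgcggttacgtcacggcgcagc
Atp5l, chr9:44920743-44920992, minus strand: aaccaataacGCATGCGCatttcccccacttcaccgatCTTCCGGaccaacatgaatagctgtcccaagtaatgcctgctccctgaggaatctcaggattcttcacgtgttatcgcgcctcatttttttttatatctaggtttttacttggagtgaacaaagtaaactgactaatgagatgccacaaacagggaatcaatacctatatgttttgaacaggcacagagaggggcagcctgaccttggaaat
Atp5d, chr10:80142025-80142274, plus strand: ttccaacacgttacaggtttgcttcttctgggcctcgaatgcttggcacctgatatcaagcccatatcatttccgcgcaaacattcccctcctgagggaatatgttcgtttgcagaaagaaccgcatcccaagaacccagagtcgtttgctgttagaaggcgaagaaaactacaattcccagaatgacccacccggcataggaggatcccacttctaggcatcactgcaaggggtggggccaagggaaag
Cycs carried 1 NRF1 match, Atp5l 1 NRF1 and 1 GABP match, and the Atp5d window none of the letters searched. Among the 5 members with the NRF1 letters the difference after the mimic ran from -0.26 (Atp5k) to 0.24 (Ndufa8), and among the 6 with the GABP letters from -0.28 (Cox6b1) to 0.17 (Ndufs3). Members with either motif thus lay on both sides of zero.

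The myoblast identity given in the labels was set against 8 markers, of which 6 were tested. Myod1, Des and Cdh15 were well detected, whereas Pax7 was above background in 0 of the 10 files and Myf5 in 1. None of the 6 passed the threshold, but 5 of them were lower on all 3 mimic arrays than on both scramble arrays at an unadjusted p under 0.05 (limma). Myod1 differed by -1.26 and Des by -0.87, whereas Ncam1 went the other way by 0.57, with overlap between the groups. The mean level of the 6 was 1.41, 1.44 and 1.42 after the mimic, against 1.76 and 2.14 after the scramble. Markers of differentiating myocytes and myotubes were detected in both groups, and 8 of 10 fell after the mimic at an adjusted p under 0.05 (limma, Benjamini-Hochberg). Their mean level on mimic arrays 1 to 3 was 0.18, 0.21 and -0.39, against 1.63 and 1.73 after the scramble. Of 5 fibroblast or smooth muscle markers 3 were tested and 2, Pdgfra and Tagln, fell, although Pdgfra was above background in just 1 of 6 mimic files and 3 of 4 scramble files, so its mimic level is not well above background. The mean level of the 3 was between -2.13 and -2.06 on the mimic arrays and between -1.25 and -1.17 on the scramble arrays. The part of these shifts in the results on the subunits was not tested. In RNA from whole cultures, fewer cells of a state and less RNA per cell cannot be told apart.

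No respiratory chain or ATP synthase subunit among the 49 changed at an adjusted p under 0.05 (limma over 13138 genes and transcripts, Benjamini-Hochberg; n = 3 and 2 arrays), while 5.11% of all genes tested were called, 2.34% lower and 2.77% higher. At an unadjusted p under 0.05, 8 of the 49 (16.3%) were lower after the mimic and 0 higher, against 14.1% and 11.2% of all genes tested. The 8 were Ndufa2 and Ndufs8 of complex I, Uqcrc1 and Cyc1 of complex III, Cox7b and Cox8a of complex IV, and Atp5c1 and Atp5d of complex V. The lower share was close to that of all genes, and the share of higher genes was below it. Counted by overlap alone, 19 of the 49 (38.8%) were lower on all 3 mimic arrays than on both scramble arrays and 2 (4.08%) were higher on all 3. Among all genes tested the groups did not overlap with the mimic lower in 25.7% and with the mimic higher in 19.8%. The median difference of the 49 was -0.09, with 32 below zero and 17 above, beside -0.05 for all genes tested. This balance depends on the scaling: with the 75th percentile taken over all probes, which moves the median of all genes to 0.11, the 49 had a median of 0.07, with 19 below zero and 30 above. The 95% interval of the difference lay within a 2-fold change in either direction for 46 of the 49, and within 1.5-fold for 22. Most subunits therefore have their change bounded to under 2-fold by these arrays, without having been shown to be equal.

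**Figure D1:**
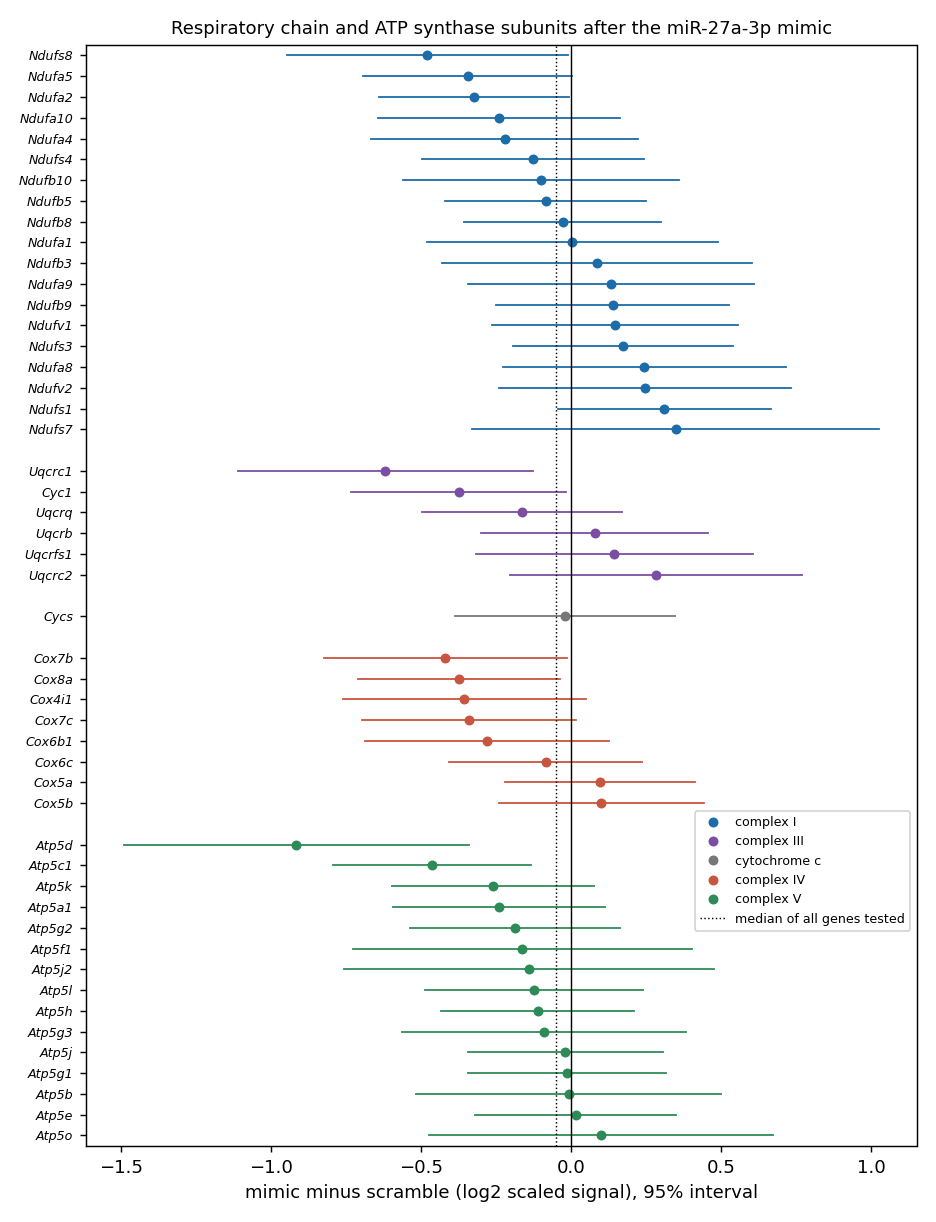
Mimic minus scramble difference of each of the 49 members (points, log2 scaled signal) with limma's 95% interval (lines), ordered within each complex. The solid line marks zero and the dotted line the median of all genes tested, -0.05. The intervals of 8 members lie wholly below zero and none wholly above, and Atp5d (-0.91) lies farthest out.

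Complex I had a median difference of 0.01, with 9 of its 19 subunits below zero and 10 above. The highest difference was that of Ndufs7, a core subunit that carries an iron-sulphur cluster, and the lowest that of Ndufs8, another iron-sulphur subunit of the same arm. Ndufs7 had levels of 3.16, 3.28 and 2.79 on the mimic arrays and of 3.11 and 2.35 on the scramble arrays, a difference of 0.35 ± 0.28 (SE, adjusted p = 0.45). Its groups overlapped, since the scramble arrays lay on either side of the lowest mimic array. Ndufs8 had levels of -1.76, -1.99 and -1.80 after the mimic and of -1.61 and -1.13 after the scramble, a difference of -0.48 ± 0.19 (adjusted p = 0.19). Every mimic array was below both scramble arrays for Ndufs8, but the scramble arrays differed from each other by as much as the groups did.

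Other core subunits of complex I did not pass the threshold. Ndufs1, the largest iron-sulphur protein of the complex, was at 1.37, 1.35 and 1.25 on the mimic arrays and at 1.12 and 0.90 on the scramble arrays (0.31 ± 0.14, adjusted p = 0.24). It was the 1 complex I subunit with every mimic array above both scramble arrays. Ndufv1, which binds NADH and FMN, was at 2.06, 2.18 and 1.93 and at 2.07 and 1.75 (0.15 ± 0.17, adjusted p = 0.60). Ndufs3, a core subunit of the arm that reaches into the matrix, was at 2.09, 2.03 and 1.90 and at 1.94 and 1.73 (0.17 ± 0.15, adjusted p = 0.49). For Ndufv1 and Ndufs3 the groups overlapped. The accessory subunits Ndufa2 and Ndufa5 were lower on all 3 mimic arrays. Ndufa2 lay between 1.09 and 1.14 after the mimic and at 1.41 and 1.45 after the scramble (-0.32 ± 0.13, adjusted p = 0.19). One of its mimic values, that of array 2, rests on 1 file because the spot of the other scan was marked as an outlier. Ndufa5 lay between 1.20 and 1.37 and at 1.66 and 1.54 (-0.34 ± 0.14, adjusted p = 0.20). The other 12 subunits had differences between -0.24 (Ndufa10) and 0.25 (Ndufv2). Ndufa4 is placed in complex I by the list, and later work assigns its protein to complex IV. Counting it there changed the medians to 0.05 for complex I and -0.28 for complex IV.

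Complex III was split evenly, with 3 of 6 subunits below zero, 3 above and a median of -0.04. Uqcrc1, one of the large core proteins that face the matrix, had levels of -1.02, -0.91 and -0.86 on the mimic arrays and of -0.59 and -0.03 on the scramble arrays (-0.62 ± 0.20, adjusted p = 0.13). Its partner core protein Uqcrc2 was at 1.68, 1.69 and 1.47 and at 1.58 and 1.07 (0.28 ± 0.20, adjusted p = 0.40). For Uqcrc1 the groups did not overlap, and for Uqcrc2 they did, with scramble array 2 apart from the other 4 arrays in both genes. Cyc1, the cytochrome c1 that delivers electrons to cytochrome c, was at 1.27, 1.15 and 1.32 and at 1.52 and 1.72 (-0.37 ± 0.15, adjusted p = 0.19), with no overlap. Uqcrfs1, the Rieske iron-sulphur protein, was at 0.65, 0.50 and 0.71 and at 0.71 and 0.24 (0.14 ± 0.19, adjusted p = 0.65). Cycs, the mobile cytochrome c itself, was at 2.03, 2.14 and 2.06 and at 2.23 and 1.96 (-0.02 ± 0.15, adjusted p = 0.94), so the scramble arrays enclosed all 3 mimic arrays.

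Complex IV, cytochrome c oxidase, had the lowest median of the 4 complexes, -0.31. Of its 8 nuclear subunits, 6 were below zero and all 6 of these were lower on every mimic array than on both scramble arrays. Among all genes tested, 25.7% were lower on every mimic array in this way. The balance of 6 to 2 depends in part on the scaling. Under the 75th percentile over all probes 5 were below zero and 3 above, with a median of -0.15. After quantile normalisation 6 were below and 2 above, with a median of -0.22. Cox4i1, the regulatory subunit that binds ATP, had levels of 2.43, 2.47 and 2.32 after the mimic and of 2.58 and 2.94 after the scramble (-0.35 ± 0.16, adjusted p = 0.24). Without scramble array 1 the Cox4i1 difference was -0.53 and without scramble array 2 it was -0.18, each resting on 1 scramble array. Cox7b, a small structural subunit, lay between 1.49 and 1.61 after the mimic and at 2.13 and 1.76 after the scramble (-0.42 ± 0.16, adjusted p = 0.19). Cox8a, the ubiquitous form of the smallest subunit, was at 3.09, 3.11 and 2.94 and at 3.43 and 3.41 (-0.37 ± 0.14, adjusted p = 0.17). The standard deviation between the scramble arrays was 0.01 for Cox8a, and the gap between the groups exceeded the spread within either group. Cox7c (-0.34), Cox6b1 (-0.28) and Cox6c (-0.08) completed the 6. The other kept probes of Cox7c gave 0.12 and -1.01, so its direction depends on the probe. The probe at -1.01 was dim, well above background in just 5 of the 10 files. The remaining pair, Cox5a and Cox5b, sits on the matrix side of the complex and lay above zero. Cox5a was at 2.61, 2.60 and 2.65 and at 2.55 and 2.50, higher on all 3 mimic arrays by a small 0.10 ± 0.13 (adjusted p = 0.65). Cox5b was at 1.52, 1.53 and 1.49 and at 1.51 and 1.31 (0.10 ± 0.14, adjusted p = 0.66), and its groups overlapped.

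Complex V held 13 subunits below zero and 2 above, with a median of -0.12. Of the 15, 6 (40.0%) were lower on all 3 mimic arrays than on both scramble arrays, against 25.7% of all genes tested. The balance of 13 to 2 depends on the scaling, with 6 below and 9 above under the 75th percentile over all probes, and 8 below and 7 above after quantile normalisation. Atp5d, the delta subunit of the catalytic head's central stalk, had the largest difference of all 49 members. Its level was 0.45, 0.36 and 0.56 after the mimic, against 1.02 and 1.73 after the scramble (-0.91 ± 0.23, adjusted p = 0.088), a 1.89-fold lower mean signal whose 95% interval ran from -1.49 to -0.34. The groups did not overlap, but the standard deviation was 0.50 between the scramble arrays and 0.10 between the mimic arrays. Without scramble array 2 the difference was -0.56 and without scramble array 1 it was -1.27, each resting on 1 scramble array. The probe of Atp5d lies at chr10:79608230-79608289 on mm9, per the files.

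Atp5c1, the gamma subunit that rotates inside the head, was at 0.18, 0.16 and 0.30 on the mimic arrays and at 0.69 and 0.67 on the scramble arrays (-0.46 ± 0.13, adjusted p = 0.11). This probe, which the files place across chr2:9977788-9980644 on mm9, separated the groups clearly, but a second probe for the gene at chr2:9977665-9977724 gave 0.09, the opposite sign. The catalytic beta subunit Atp5b was at 2.99, 3.40 and 3.24 and at 2.99 and 3.44 (-0.01 ± 0.21, adjusted p = 0.98). The non-catalytic alpha subunit Atp5a1 was at 1.14, 1.15 and 1.16 and at 1.51 and 1.26 (-0.24 ± 0.14, adjusted p = 0.34), lower on every mimic array. The genes of the membrane ring, Atp5g1, Atp5g2 and Atp5g3, encode the same mature subunit c with different import signals. Atp5g1 differed by -0.01 ± 0.13 (adjusted p = 0.96), Atp5g2 by -0.19 ± 0.14 (adjusted p = 0.44) and Atp5g3 by -0.09 ± 0.19 (adjusted p = 0.79). Only Atp5g2 of the ring genes had every mimic array (3.84 to 4.05) below both scramble arrays (4.16 and 4.08). Its other kept probes gave -0.04, with overlap between the groups, and -0.37. After quantile normalisation the difference of the chosen Atp5g2 probe was 0.03. At the upper end Atp5o, which joins the head to the peripheral stalk, was at -0.75, -0.92 and -0.25 and at -0.86 and -0.63 (0.10 ± 0.23, adjusted p = 0.80).

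The order of the complexes was then examined on the arrays. The mean level of complex IV was 1.42, 1.47 and 1.41 after the mimic, against 1.61 and 1.66 after the scramble, without overlap. That of complex V was 1.48, 1.60 and 1.64 and 1.72 and 1.76, also without overlap. Both separations are on the scaling as reported. With the 75th percentile over all probes the median differences were -0.15 for complex IV and 0.04 for complex V, and overlap of the means was not examined there. For complex I the means were 1.01, 1.03 and 0.99 after the mimic and 1.13 and 0.90 after the scramble, so the scramble arrays enclosed the mimic arrays. The complex III means of 0.85, 0.77 and 0.84 lay below those of the scramble arrays, 0.98 and 0.88. Taken within each array, the complex IV mean exceeded the complex I mean by 0.41, 0.43 and 0.42 on the mimic arrays and by 0.48 and 0.76 on the scramble arrays. Complex V minus complex I was 0.46, 0.56 and 0.65 after the mimic and 0.59 and 0.86 after the scramble. Complex III minus complex I was -0.17, -0.26 and -0.15 after the mimic and -0.16 and -0.03 after the scramble. The groups overlapped in both of these contrasts. For complex IV against complex I the mimic arrays lay together and below both scramble arrays, but the scramble arrays differed from each other by more than the nearer one differed from the mimic arrays. With 3 arrays against 2, an exact permutation test has 10 arrangements and cannot reach 0.05, and no p is given for the means of a chosen list.

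**Figure D2:**
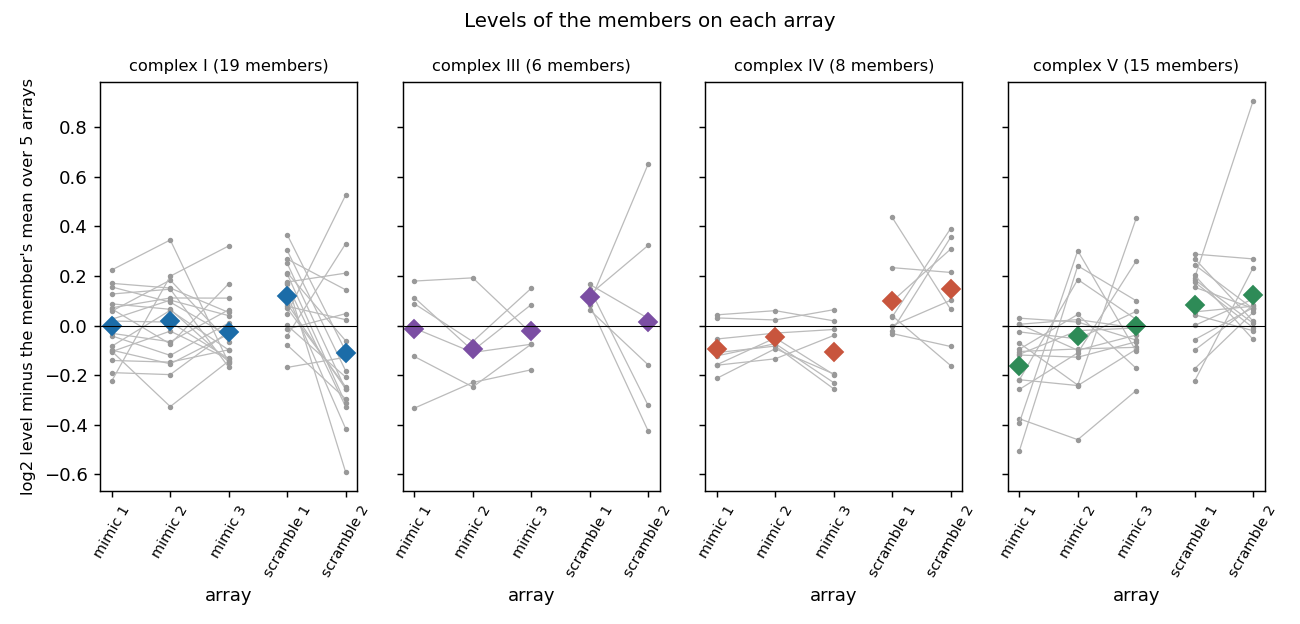
Level of each member of complexes I, III, IV and V on each of the 5 arrays, as log2 scaled signal minus the member's own mean over the arrays. Grey points and lines are single members, joined only within a group, and coloured diamonds are the mean of the complex. Complex III, IV and V means lie lower on the 3 mimic arrays than on both scramble arrays, and complex I members spread widely on scramble array 2.

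Set against each scramble array in turn, complex I reversed. The mean of the mimic arrays was lower than scramble array 1 in 15 of its 19 subunits (median -0.11) and lower than scramble array 2 in 6 of 19 (median 0.23). In 11 of the 19 (57.9%) the 2 signs were opposite, against 31.8% of all genes tested. Complex IV did not reverse: 6 of 8 subunits were lower against either array, with medians of -0.13 and -0.30, and none had opposite signs. Complex V had medians of -0.23 and -0.11 and 6 of 15 subunits (40.0%) with opposite signs. The medians of complex III were -0.16 and 0.05. The comparisons share the mimic arrays. Over the 49 members the median standard deviation between the scramble arrays was 0.157, and between the mimic arrays 0.079. Over all genes tested these were 0.255 and 0.124, so the wider scramble spread was not particular to the members.

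**Figure D3:**
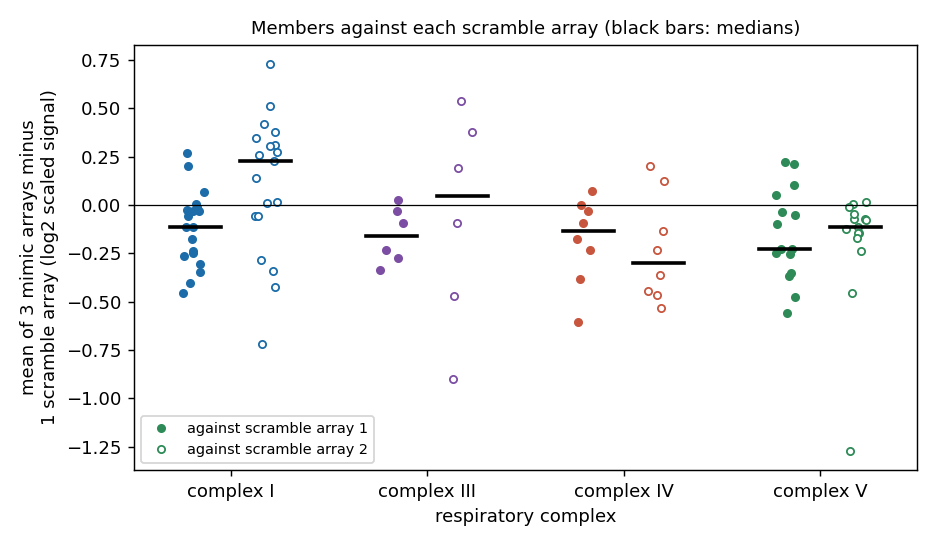
Mean of the 3 mimic arrays minus scramble array 1 (filled) or scramble array 2 (open) for each member, by complex, in log2 scaled signal. Black bars are medians, which pass from -0.11 to 0.23 for complex I and are below zero against both arrays for complexes IV and V.

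The order of the medians was also followed over 18 other ways of treating the data. Not all 18 could change it, so they are not 18 separate checks. The robust trended variance and the probe filters left the 4 medians as reported. The 75th percentile over all probes moves every gene alike. Taking the files as separate arrays, or with array position as a random block, changed only the complex I median. The complex IV median was below that of complex I in all 18, from -0.32 to -0.13 for complex IV and from -0.11 to 0.23 for complex I. Without scramble array 2 the medians nearly met, at -0.13 for complex IV and -0.11 for complex I, so the size of the gap depends on that array. Complex IV was the lowest of the 4 complexes in 17, the exception being the omission of scramble array 2, where complex V was lowest. Relative to the median of all genes under the same setting, complex IV lay 0.11 to 0.28 lower in all 18 and complex V lay lower in 16. Complex I lay above the median of all genes in 17, and complex III on either side. Relative to zero, complexes III and V changed sign with the scaling, as under the 75th percentile over all probes (0.12 and 0.04).

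**Figure D4:**
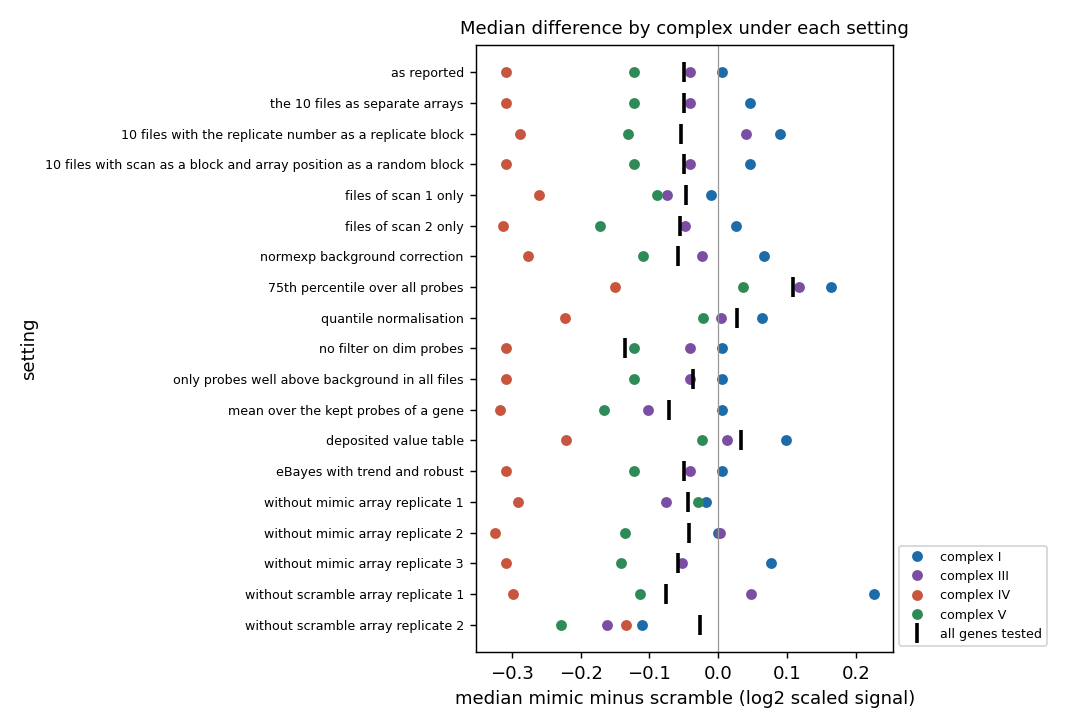
Median mimic minus scramble difference of complexes I, III, IV and V (coloured points) and of all genes tested (black ticks) as reported and under each of 18 alternatives, in log2 scaled signal. Complex IV lies left of complex I in every line, though only slightly without scramble array 2. The whole set of points shifts to the right with the 75th percentile over all probes.

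The 49 genes had 74 probes, and 16 genes had more than 1. Of the 15 genes with more than 1 kept probe, 11 had the same sign on all of them, and in all 11 the probes were lower after the mimic. No such share is given for all genes, and the sign of small differences depends on the scaling. The 75th percentile over all probes moved the median of all genes from -0.05 to 0.11. Under it the chosen probe of Atp5g1 turned from -0.01 to 0.15. Cox8a was at -0.37 and -0.36, Ndufa5 at -0.34 on both, and the 3 probes of Atp5k between -0.26 and -0.21. The 6 probes of Atp5l, a subunit of the membrane part, ranged from -0.24 to -0.02. The sign differed between probes for Atp5c1, Cox7c (-1.01 to 0.12, the lowest value from a dim probe), Uqcrb (-0.24 to 0.28) and Cycs (-0.02 and 0.07). For these 4 genes the direction depends on the probe chosen. Several subunits have processed pseudogenes of near-identical sequence, and sharing of signal with them was not tested.

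The other genes of the pathway were taken from lists. Of 26 further nuclear subunits of complexes I, III, IV and V, 25 were tested and none was called, with a median of -0.13. The smallest p belonged to Ndufa3, an accessory subunit of complex I, at 1.07, 1.26 and 1.08 after the mimic and 1.59 and 1.78 after the scramble (-0.55 ± 0.15, adjusted p = 0.098). None of the 13 mitochondrially encoded subunits was called either, at a median of -0.13. Their lowest member was ND6, a membrane subunit of complex I encoded on the other strand from the rest (-0.69 ± 0.17, adjusted p = 0.081). The 4 subunits of complex II, succinate dehydrogenase, ranged from -0.25 (Sdhd, adjusted p = 0.30) to 0.15 (Sdhb), and none was called.

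The muscle form of a complex IV subunit did change. Cox6a2, the heart and skeletal muscle isoform of subunit VIa, had levels of -0.58, -0.59 and -0.98 on the mimic arrays and of 0.33 and 0.63 on the scramble arrays, and fell by 1.20 on the log2 scale (SE 0.19, adjusted p = 0.029). The call was lost on leaving out any mimic array or scramble array 2 (adjusted p of 0.078 to 0.12), at differences of -1.27 to -1.05. It was also lost with no filter on dim probes (-1.20, adjusted p = 0.24), where 17 of 34475 genes and transcripts were called in all. Cox8b, the muscle partner of Cox8a, was at -2.36, -1.99 and -3.58 and at -0.50 and -0.55 (-2.12 ± 0.46, adjusted p = 0.060). Cox7a1, a further muscle isoform, differed by -0.94 ± 0.67 (adjusted p = 0.41) and Cox4i2, the oxygen-regulated form of Cox4, by 0.37 ± 0.16 (adjusted p = 0.22). Cox6b2 and Ndufa4l2, the other 2 of the 6 isoforms listed, had no probe kept. The differentiation markers described above moved in the same direction as Cox6a2, and their part in it was not tested.

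Assembly factors and regulators did not pass the threshold either. Of 39 assembly factors 32 were tested, with 14 below zero, 18 above and a median of 0.07. Sdhaf1, which helps to mature the iron-sulphur subunit of complex II, had the smallest p (-0.82 ± 0.18, adjusted p = 0.058), and Cox14, a complex IV assembly factor, the highest difference (0.60 ± 0.17, adjusted p = 0.10). Of 12 regulators of respiratory genes 10 were tested, with 8 below zero and a median of -0.29. Tfam, which packages and transcribes mitochondrial DNA, was at -1.97, -2.21 and -2.08 after the mimic and at -1.46 and -1.38 after the scramble (-0.67 ± 0.14, adjusted p = 0.060). Nrf1 differed by -0.35 ± 0.13 (adjusted p = 0.18), Gabpa by 0.23 ± 0.16 (adjusted p = 0.39) and Ppargc1a, which encodes PGC-1alpha, by -0.99 ± 0.34 (adjusted p = 0.15). Ppargc1a was above background in 2 of 6 mimic files and 3 of 4 scramble files, so its level after the mimic is uncertain. Of 20 other mitochondrial proteins none was called (median -0.12), and the smallest p was that of the inner-membrane prohibitin Phb2 (-0.60 ± 0.19, adjusted p = 0.13).

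**Figure D5:**
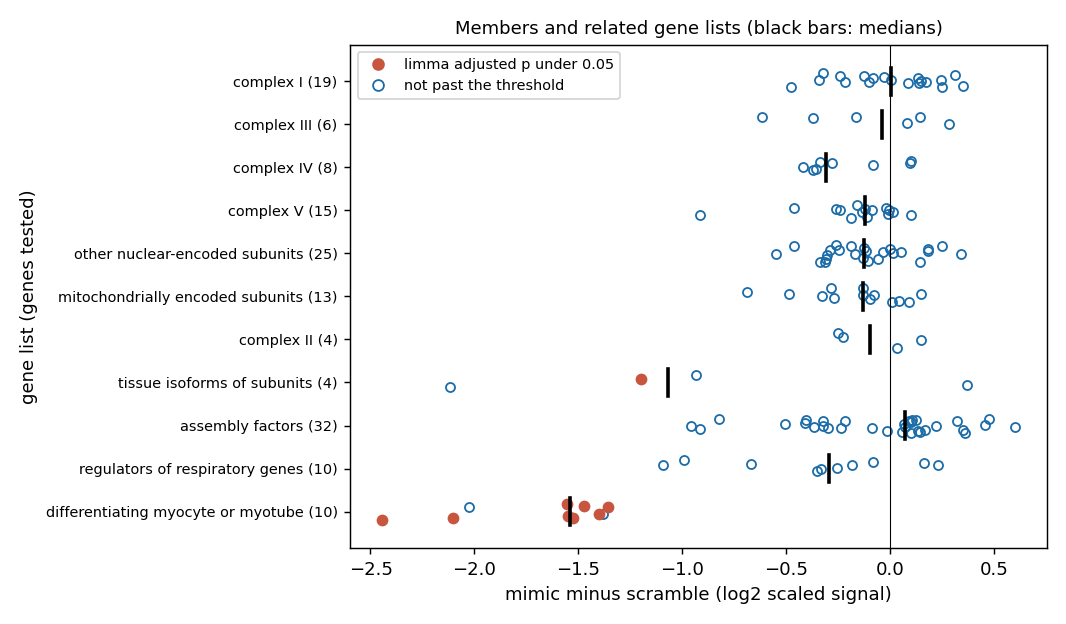
Mimic minus scramble difference in log2 scaled signal for the members by complex and for related lists, with the number of genes tested in brackets. Filled red points passed an adjusted p under 0.05 and black bars are medians. None of the members plotted by complex is red, the median of complex IV lies at -0.31 and those of the other complexes between -0.12 and 0.01, Cox6a2 is the red point among the tissue isoforms, and 8 of 10 differentiation markers are red.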

How the data were processed

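Total RNA of 6 mimic and 4 scramble samples had been labelled with Cy3 and hybridised to 1-colour Agilent expression arrays. The authors' deposited scanner files hold spot intensity, per the file headers the background-subtracted processed signal of Feature Extraction 12.0.0.7. Version 10.7.3.1 appears instead in the submitters' processing notes. Probe positions are on mm9, per the file headers. A deposited value table gave 1 intensity per probe and served as an alternative. Its columns were linear and uncentred and ranked probes as the processed signal did (Spearman's rho of 0.9988 or more). The column medians were 188.9, 273.4, 256.6, 212.6, 249.8 and 291.1 (mimic, in replicate order) and 241.9, 242.2, 201.1 and 212.6 (scramble). The rule that left its dim probes empty stays unknown.

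Control and outlier spots (157 to 270 per file) were left out, the log2 signal was averaged per probe, and each file was scaled by subtracting its 75th percentile, taken over the 13029 probes that were well above background in every file. Probes well above background in at least 4 files were kept (16786 of 55681), with 1 probe per gene by highest mean signal. The 2 scans of an array were averaged, and 13138 genes with a value on every array were fitted by lmFit and eBayes (limma 3.58.1, R 4.3.3; residual degrees of freedom, 3), and p-values were adjusted over all of them by Benjamini-Hochberg. The test was also run on simulated data, with means and spread drawn from the fit to these data. Averaging the 2 scans differs from taking the 10 files as replicates, which is an alternative. Named are members past the threshold, the highest and lowest of each complex, and a fixed core (Ndufv1, Ndufs1, Ndufs3, Ndufs7, Uqcrc1, Uqcrfs1, Cyc1, Cycs, Cox4i1, Cox5a, Cox5b, Atp5a1, Atp5b, Atp5c1 and the Atp5g genes). Of each further list, genes past the threshold or the one with the smallest p are named. Other genes named in the text were chosen after their values were seen. The members and lists were chosen with earlier results of these data known. Alternatives covered the replicate unit, blocks, scans, background correction, scaling, probe filters, probe choice, the variance model and each array left out. Gene symbols are those of the array's files, with Atp5f1 matched to the RefSeq name Atp5pb for its promoter. An annotation on mm9 was not used here, so the exons of probes are not given.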

Additional observations from a re-analysis of the deposited data

How the results depend on the processing

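None of the 49 members was called as reported, and none under normexp, either percentile or quantile scaling, either filter, the probe mean, the value table, either scan alone or a robust trended variance. With the 10 files as separate arrays 10 of 48 were called (9 lower; 34.5% of all genes were called), with scan as a block and array position as a random block 2 (Atp5c1 and Atp5d; 11.2% of all genes), and with the replicate number as a replicate block 1 (Atp5d, -0.90, adjusted p = 0.038; 14.9% of all genes). The share of members called was below that of all genes in each. The files of 1 position are not independent, and same-numbered samples did not deviate together (correlations of 0.38, -0.04, -0.35 and -0.11 for numbers 1 to 4). Leaving out each array gave 0 to 6 calls, the 6 arising without scramble array 1 (Ndufa8 higher, and Ndufs8, Uqcrc1, Cox4i1, Cox6b1 and Atp5d lower), where 12.2% of the members and 33.0% of all genes were called. The lone scramble array is then assumed to vary like the mimic arrays.

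The median of the 49 was 0.069 with the 75th percentile over all probes, -0.0222 after quantile normalisation and -0.0141 in the value table, and -0.112 to -0.0371 on leaving out each array. The complex I median was 0.16 with all probes and -0.11 to 0.23 on leaving out each array. The complex IV median was -0.15 with all probes, -0.22 in the value table and -0.32 to -0.13 on leaving out each array. Of 396 values of the 22 named members under 18 alternatives, 32 changed sign. None of the 22 was called as reported, so the 372 values counted as unchanged are values that stayed uncalled. They include sign changes smaller than the spread between arrays. Some alternatives leave the differences as they are, so the 372 do not measure robustness. Leaving out a scramble array moved the difference of 18 of the 22 by over 1.5 times, including 7 that turned sign. The causes were not tested.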
